A study of Mus musculus with 6 samples.

Results

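MicroRNA host genes and the genes of the microRNA processing machinery were followed in RNA-seq libraries of regulatory T cells (Treg), the CD4 T cells that express Foxp3 and hold immune responses in check. The set holds 10 genes picked by symbol. Mir142hg, Mir155hg and Mir17hg are host genes, whose transcripts carry microRNA hairpins, and Drosha, Dgcr8, Xpo5, Dicer1, Ago1, Ago2 and Ago3 encode proteins that cut, carry or hold microRNAs. The set was drawn up with 1 measured pattern in view, namely that Mir142hg follows the sample labels, so the values of Mir142hg are described and not tested. Of the 10 genes, 9 have a row among the 37991 rows of the count table. Mir155hg has none there and was read from the authors' own comparison.

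The study compared Treg from mouse spleen that were labelled wild type and KAP1 sufficient (3 libraries) or KAP1 deficient (3 libraries). Trim28 encodes KAP1, which KRAB zinc finger proteins recruit to silence the DNA they bind. CD4-positive cells were enriched from spleen, YFP-positive Treg were sorted from them, and libraries were made from total RNA with a TruSeq RNA kit that does not mark strand. The driver of the YFP or of any Cre, the Trim28 allele, the age and the number of animals are not given in these sources, so the p-values measure the spread between these libraries, which may be technical. The strain is labelled C57BL/6 for 4 libraries, C57BL/7 for deficient replicate 2 and C57BL/8 for deficient replicate 3.

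A microRNA is a short RNA cut out of a hairpin in a longer host transcript. In the nucleus Drosha and its RNA-binding partner Dgcr8 release the hairpin, and exportin-5 (Xpo5) carries it to the cytoplasm, where Dicer1 cuts out the mature strand. An Argonaute protein (Ago1 to Ago3 here) then holds that strand, which pairs through its seed with sites that lie mostly in the 3' UTR of messenger RNAs and lowers their stability or translation. Treg need this pathway: mouse Treg without Dicer1 or Drosha are known to lose suppressive function. Among the hosts, Mir142hg carries miR-142, which is abundant in blood cells, Mir155hg carries miR-155, which Foxp3 induces, and Mir17hg carries the miR-17-92 cluster, which promotes lymphocyte growth and survival.

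The mature strands of the host genes are shown so that their seeds can be compared, with the seed (bases 2 to 8) in capitals. They are from RefSeq on GRCm38.p6, and all 9 strands sought were found.
mmu-miR-142a-5p: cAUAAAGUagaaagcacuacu
mmu-miR-142a-3p: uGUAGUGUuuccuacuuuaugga
mmu-miR-155-5p: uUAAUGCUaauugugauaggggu
mmu-miR-17-5p: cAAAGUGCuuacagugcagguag
mmu-miR-20a-5p: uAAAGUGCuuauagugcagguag
mmu-miR-18a-5p: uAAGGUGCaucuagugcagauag
mmu-miR-19a-3p: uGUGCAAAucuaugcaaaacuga
mmu-miR-19b-3p: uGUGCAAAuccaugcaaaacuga
mmu-miR-92a-3p: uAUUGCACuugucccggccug
Within the miR-17-92 cluster, miR-17-5p and miR-20a-5p share a seed and differ by C1U and C12U, counted from the 5' end of miR-17-5p. The pair miR-19a-3p and miR-19b-3p share another seed and differ by U11C, counted in the same way from miR-19a-3p. The other 5 strands each have a seed of their own. The libraries hold fragments of long RNA, so the values below are levels of host transcripts and of messenger RNAs, and mature microRNAs were not measured.

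The host genes differ in where the hairpin lies, which decides whether its bases are part of the spliced transcript. Mir142hg (ENSMUSG00000084796) lies on chromosome 11 from 87755577 to 87757270, plus strand, and has exons of 37 and 232 bases. The hairpin of miR-142 (87756864 to 87756927) is in the intron between them. Mir17hg (ENSMUSG00000089726) lies on chromosome 14 from 115042879 to 115046727, plus strand, with exons of 79 and 3457 bases, and all 6 hairpins of the cluster are in the second exon. Mir155hg (ENSMUSG00000097418) lies on chromosome 16 from 84703167 to 84715245, plus strand, with its hairpin in the third of 3 exons. These positions, like the others below, are from GENCODE M21 on GRCm38 (mm10).

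Trim28 itself went against the label in 2 libraries, and this bears on each comparison below. Its level was 244, 244 and 21.2 CPM (its counts scaled to the library total) in the libraries labelled sufficient 1, 2 and 3 and 23.0, 18.6 and 231 CPM in those labelled deficient 1, 2 and 3. Low Trim28 thus stood in the library labelled sufficient 3 and high Trim28 in the library labelled deficient 3. The genes were therefore read in 3 comparisons: all 6 libraries by label, the 4 libraries of replicates 1 and 2, in which Trim28 goes with the label, and all 6 libraries by Trim28 level (high in sufficient 1, sufficient 2 and the library labelled deficient 3, low in the others). Trim28 level is a measured value and not a label, the 3 comparisons share libraries, and a positive log2 fold change means higher in the deficient label or in low Trim28. Differences are from edgeR's quasi-likelihood test over all genes, with a Benjamini-Hochberg adjusted p under 0.05 taken as a change. With bulk RNA, fewer cells with a transcript and less of it per cell cannot be told apart.

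Libraries held 9954344 to 10994745 counts, and the 9 counted members had between 116 and 3865 counts in each library. Treg markers summed to 4672 to 4927 CPM in the sufficient label and 4808 to 4901 CPM in the deficient label, and by Trim28 level to 4827 to 4927 CPM in high and 4672 to 4817 CPM in low Trim28, which do not overlap. None of the 8 genes of that list, Foxp3, Il2ra and Ctla4 among them, was at 0. B cell markers, led by Ighm and Cd79b, summed to 581 to 697 CPM in the sufficient label and 544 to 606 CPM in the deficient label, but by Trim28 level the groups stood apart, at 606 to 697 CPM in high and 544 to 581 CPM in low Trim28. Stromal and endothelial markers (Pecam1, Col1a1; Col3a1 at 0) also stood apart by Trim28 level, at 226 to 247 against 199 to 224 CPM. The other lists were low: myeloid markers (Cd68, Itgam; Cd14 at 0) at 4.73 to 8.34 CPM, dendritic cell markers (Zbtb46, Xcr1; Cd209a, Itgax and Siglech at 0) at 1.18 to 4.37 CPM, natural killer markers (Klrb1c, Eomes; Klra8 and Ncr1 at 0) at 4.62 to 11.9 CPM, CD8 T cell markers (Cd8b1, Cd8a) at 10.2 to 14.8 CPM, and erythroid markers (Hba-a1, Hbb-bs; the other 4 at 0) at 0 to 0.182 CPM. Summed natural killer markers were higher in each low Trim28 library (9.999 to 11.9 CPM) than in each high one (4.62 to 7.03 CPM). Summed dendritic cell markers were likewise higher (2.61 to 4.37 against 1.18 to 2.57 CPM). Within the natural killer list, Klrb1c was higher in low Trim28 (log2 fold change 1.97 ± 0.18) and Eomes lower (-1.07 ± 0.33). Of the dendritic cell list only Zbtb46 could be tested. These sums therefore do not show a rise across either list. In none of the 8 lists did the summed level stand apart by label.

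Mir142hg was lower in every library labelled deficient than in every library labelled sufficient. It stood at 43.6, 41.5 and 30.8 CPM in the libraries labelled sufficient 1, 2 and 3, and at 17.0, 16.1 and 16.9 CPM in those labelled deficient 1, 2 and 3. The labelled groups did not overlap, and the deficient group was tight. The library labelled deficient 3, with its high Trim28, was at 102% of the mean of deficient 1 and 2, whereas the library labelled sufficient 3, with its low Trim28, was at 72.3% of the mean of sufficient 1 and 2. The values came from 160 to 441 counts per library. The groups averaged 38.6 ± 6.89 and 16.7 ± 0.501 CPM (SD, n = 3 each), and the fitted log2 fold change was -1.22 ± 0.13 (SE), with a 95% interval of -1.51 to -0.92.

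Regrouped by Trim28, Mir142hg overlapped between the groups. High Trim28 libraries averaged 34.0 ± 14.8 CPM and low Trim28 libraries 21.3 ± 8.24 CPM (SD, n = 3 each). The log2 fold change was -0.66 ± 0.51 (SE), with a 95% interval of -2.04 to 0.73. In the 4 libraries where label and Trim28 go together it was -1.36 ± 0.10, with an interval of -1.57 to -1.15. Without the library labelled sufficient 3 the log2 fold change by label was -1.35, and without any other single library it lay between -1.23 and -1.12.

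**Figure D1:**
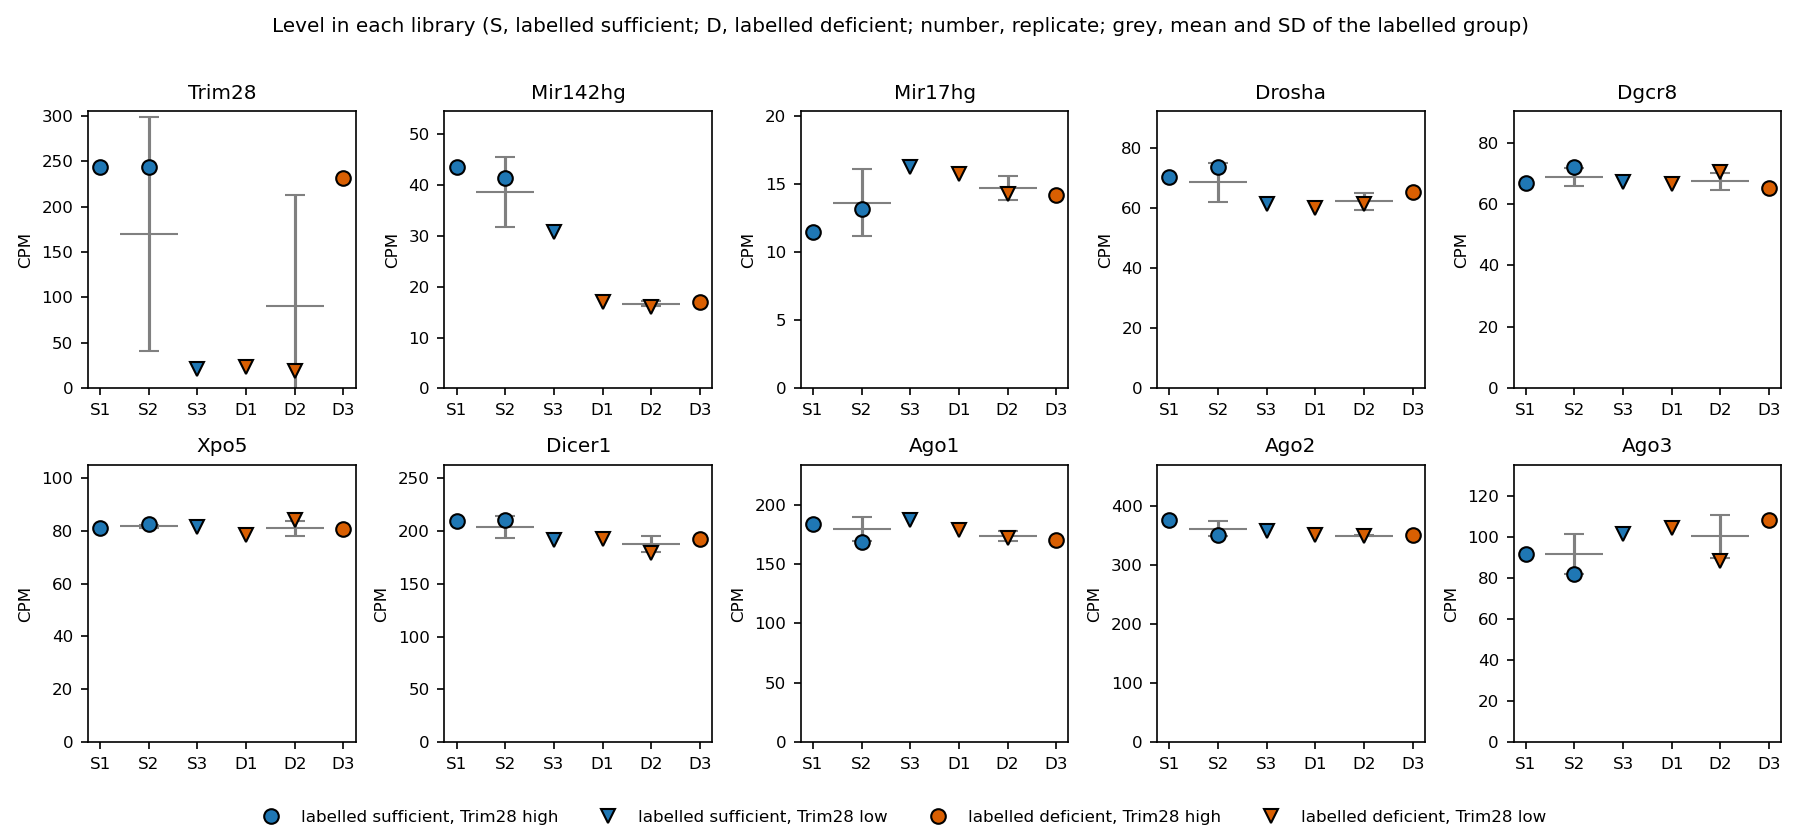
Level (CPM, linear axis from 0) of Trim28 and the 9 counted members in each library, S for labelled sufficient and D for labelled deficient with the replicate number; circles mark high and triangles low Trim28, and grey lines the mean and SD of each labelled group, n = 3 (the lower bar of Trim28 in the deficient label is clipped at 0). Mir142hg is between 16.1 and 17.0 CPM in the 3 libraries labelled deficient and at 30.8 CPM or more in the others, while Xpo5, Dgcr8 and Ago1 to Ago3 lie nearly level.

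Around Mir142hg, the genes on chromosome 11 followed different groupings. These genes were taken by distance, as the tested genes within 100 kb, outside the rule for named genes and after their values had been seen. Tspoap1, 3271 bases away, had 37.5, 28.9 and 103 CPM in the libraries labelled sufficient 1, 2 and 3 and 117, 127 and 32.5 CPM in those labelled deficient 1, 2 and 3. It was thus high in each low Trim28 library, including the library labelled sufficient 3. Its log2 fold change was 1.82 ± 0.10 by Trim28 level (edgeR adjusted p = 1.29e-07) and 0.71 ± 0.80 by label (adjusted p = 0.833). Rnf43, a ubiquitin ligase that dampens Wnt signalling, is 20038 bases away and went the other way, from 59.98, 60.4 and 45.7 CPM in high Trim28 to 19.4, 18.5 and 21.3 CPM in low Trim28, a log2 fold change of -1.48 ± 0.11 (adjusted p = 1.40e-06).

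Supt4a, which encodes a subunit of the elongation factor DSIF, is 11954 bases from Mir142hg. It stood at 40.1, 40.6 and 30.2 CPM in the libraries labelled sufficient 1, 2 and 3 and at 26.4, 30.3 and 26.6 CPM in those labelled deficient 1, 2 and 3. As for Mir142hg, the library labelled deficient 3 was low and the library labelled sufficient 3 lay between, but here the labelled groups overlapped. Its log2 fold change was -0.50 ± 0.09 in the 4 libraries (edgeR adjusted p = 0.00143), -0.41 ± 0.12 by label (adjusted p = 0.632) and -0.29 ± 0.16 by Trim28 level (adjusted p = 0.316). Mks1, 95945 bases away, ran from 20.7 to 23.1 CPM.

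The intron of Mir142hg also has a row of its own in the count table, Mir142b, annotated over the hairpin on the opposite strand. Since the kit does not mark strand, its reads cannot be told apart from those of the intron or hairpin of Mir142hg. It held 17 counts in sufficient 1, 13 in sufficient 2 and 30 in the library labelled sufficient 3, and 5, 7 and 8 counts in the 3 libraries labelled deficient. The labelled groups did not overlap here either, and the library labelled sufficient 3 had the most counts. The log2 fold change by label was -1.59 ± 0.41, but it did not pass the test over all genes (edgeR adjusted p = 0.632). In the 4 libraries it was -1.28 ± 0.45 (adjusted p = 0.0670), and by Trim28 level it was 0.19 ± 0.63 (adjusted p = 0.900). The authors' deposited table gives 0.06, sufficient over deficient, with an adjusted p of 0.816. Mir142b lies within Mir142hg, so it is not independent of the gene that the set was drawn up around. The rows of Mir17, Mir18, Mir19a, Mir20a, Mir19b-1, Mir92-1 and Mir155 held 0 counts in all 6 libraries, against a limit of 3 counts, or 0.273 to 0.301 CPM. Each of these hairpins lies within an exon of its host, and how reads shared by a hairpin and its host were counted is not given. Their 0 counts therefore do not show that this RNA was absent. Of 617 rows named as microRNA precursors, 85 had any count and 3 could be tested. In each comparison edgeR, DESeq2 and limma-voom called 0 of the 3. At an unadjusted edgeR p under 0.05 there were 2 by label, 2 in the 4 libraries and 0 by Trim28 level. Over all genes tested, 7.76%, 30.6% and 22.3% reach that level in these comparisons.

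**Figure D2:**
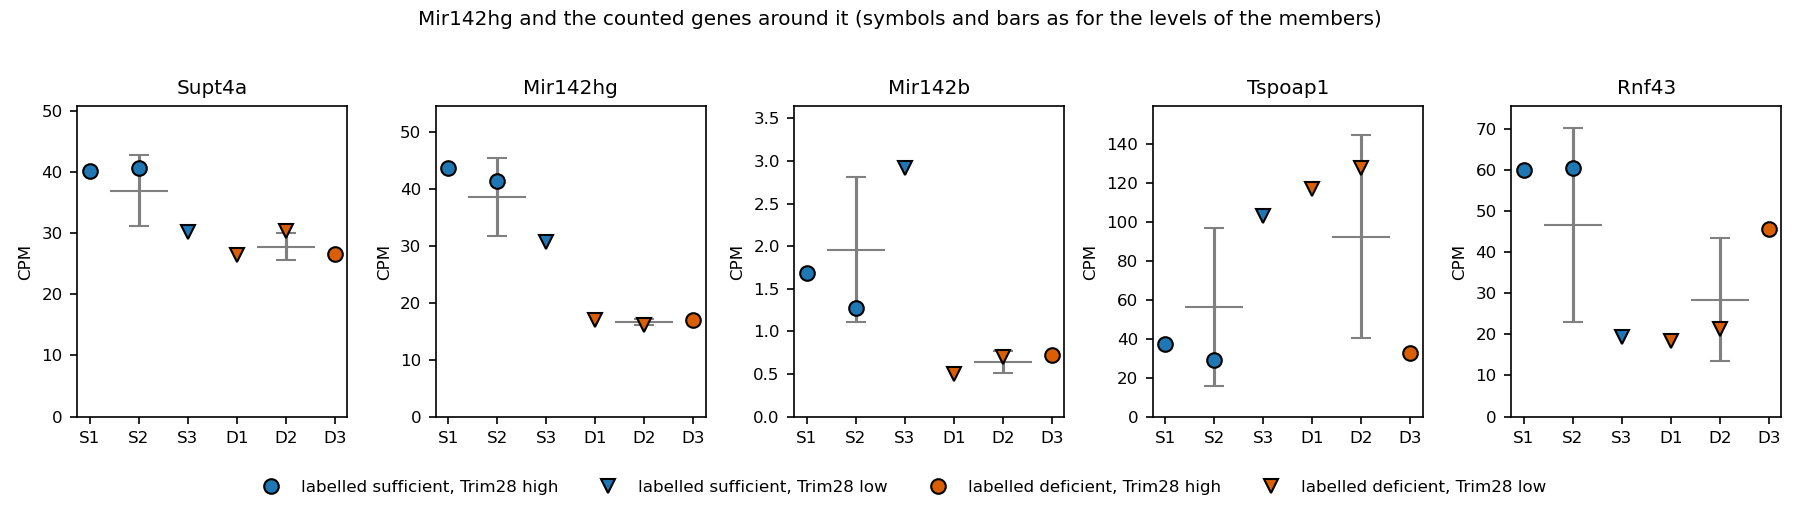
Level (CPM, linear axes from 0) of Mir142hg, of Mir142b within it and of 3 neighbours on chromosome 11 in each library, with circles for high and triangles for low Trim28, colours for the labels, and grey lines for the mean and SD of each labelled group, n = 3. Mir142hg and Mir142b separate by colour, whereas Tspoap1 and Rnf43 separate by symbol shape.

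Mir17hg did not change by label, and by Trim28 level its groups stood apart without passing the test over all genes. It stood at 11.5, 13.2 and 16.3 CPM in the libraries labelled sufficient 1, 2 and 3 and at 15.8, 14.3 and 14.2 CPM in those labelled deficient 1, 2 and 3, from 116 to 168 counts. The library labelled sufficient 3 was the highest of the 6. Low Trim28 libraries averaged 15.4 ± 1.06 CPM against 12.9 ± 1.37 CPM in high Trim28 (SD, n = 3 each), and the log2 fold change was 0.26 ± 0.12 (unadjusted p = 0.0398, edgeR adjusted p = 0.195). The 95% interval in fold was 1.01 to 1.43. By label the log2 fold change was 0.11 ± 0.14 (adjusted p = 0.855), and in the 4 libraries it was 0.29 ± 0.14 (adjusted p = 0.181).

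For Mir155hg the authors' deposited table gives a mean level of 62.0 and a log2 fold change, sufficient over deficient, of 0.02 ± 0.13 (SE) with an adjusted p of 0.981. The authors' deposited table calls 829 of the 12072 genes with an adjusted p, or 6.87%, and none of the 9 members that have a row in it, the smallest adjusted p being 0.212 for Drosha, the only one with an unadjusted p under 0.05 (0.0273). In the authors' deposited table Mir17hg was at -0.20 (adjusted p = 0.435), the reverse sign there meaning higher in deficient, and Mir142hg has no row. The sources used here do not say which libraries that table set against each other, or from which counts. For Trim28 the authors' deposited table gives 3.11, sufficient over deficient, whereas the counts by label gave -0.90 ± 1.46 (SE), deficient over sufficient.

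Among the genes that act in the nucleus, Drosha was somewhat lower where Trim28 was low, and Dgcr8 was level. Drosha (chromosome 15, 12824815 to 12935291) encodes the nuclease that frees the hairpin. It stood at 70.3, 73.8 and 61.5 CPM in the libraries labelled sufficient 1, 2 and 3 and at 60.01, 61.4 and 65.4 CPM in those labelled deficient 1, 2 and 3. Each high Trim28 library was above each low Trim28 library, by 69.8 ± 4.21 against 60.9 ± 0.810 CPM (SD, n = 3 each). The log2 fold change was -0.24 ± 0.07 in the 4 libraries (edgeR adjusted p = 0.0292), -0.19 ± 0.07 by Trim28 level (unadjusted p = 0.0133, adjusted p = 0.104) and -0.14 ± 0.08 by label (adjusted p = 0.654). In the 4 libraries Drosha was lower in all 11 alternatives (log2 fold change -0.271 to -0.213), but its call depended on the setting. The call was lost with DESeq2 (adjusted p = 0.238). It was also lost without sufficient 2, deficient 1 or deficient 2, each of which leaves 1 library in a group. By Trim28 level it passed without the library labelled deficient 3 (-0.24, adjusted p = 0.0105).

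Dgcr8 (chromosome 16, 18253948 to 18289246), which encodes the RNA-binding partner of Drosha, stood at 67.0, 72.2 and 67.3 CPM in the libraries labelled sufficient 1, 2 and 3 and at 66.7, 70.4 and 65.2 CPM in those labelled deficient 1, 2 and 3. Its log2 fold changes were -0.03 ± 0.06 by label, -0.02 ± 0.07 in the 4 libraries and 0.01 ± 0.06 by Trim28 level, and none passed the test. The 95% interval by label runs from 0.887 to 1.08 in fold. Its exons share 825 bases with Trmt2a on the opposite strand, and without strand the reads of the shared part cannot be assigned. Xpo5 (chromosome 17, 46202782 to 46243598), which encodes the export receptor, had the smallest spread of the 9, from 78.4 to 84.0 CPM (coefficient of variation 2.30%). Its log2 fold changes lay between -0.01 and 0.01 in the 3 comparisons, and the interval by label was 0.907 to 1.08 in fold.

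Dicer1 (chromosome 12, 104687742 to 104751952), which encodes the nuclease that makes the mature strand, followed Drosha at a smaller size. It stood at 209, 210 and 192 CPM in the libraries labelled sufficient 1, 2 and 3 and at 192, 179 and 192 CPM in those labelled deficient 1, 2 and 3. By Trim28 level the groups did not overlap, but only just, with 192.5 CPM in the lowest high Trim28 library and 192.0 CPM in the highest low one. The log2 fold change was -0.17 ± 0.05 in the 4 libraries (edgeR adjusted p = 0.0416), -0.11 ± 0.06 by Trim28 level (adjusted p = 0.299) and -0.12 ± 0.06 by label (adjusted p = 0.654). The Dicer1 call was lost with limma-voom (adjusted p = 0.0539), with DESeq2 (0.218) and without sufficient 1, sufficient 2 or deficient 2 (0.0989, 0.0838 and 0.370). By Trim28 level Dicer1 too passed without the library labelled deficient 3 (-0.16, adjusted p = 0.0286). The B cell markers named above also stood lower in low Trim28, and their part in the values of Drosha and Dicer1 was not tested.

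None of the Argonaute genes passed the test in the 3 comparisons, and Ago2 had the highest level of the machinery genes. Ago2 (chromosome 15, 73095844 to 73184935), the Argonaute that can also cut its target, stood at 376, 352 and 358 CPM in the libraries labelled sufficient 1, 2 and 3 and at 351, 349 and 352 CPM in those labelled deficient 1, 2 and 3. The labelled groups did not overlap, with 351.7 CPM the lowest in the sufficient label and 351.5 CPM the highest in the deficient label. That gap was far under the spread within the groups, and the log2 fold change by label was -0.05 ± 0.05 (edgeR adjusted p = 0.807), an interval of 0.890 to 1.05 in fold. Its exons share 219 bases with Chrac1 on the opposite strand.

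Ago1 and Ago3 are neighbours on chromosome 4 (126435012 to 126468583 and 126331704 to 126429556), both on the minus strand. Ago1 ran from 168 to 187 CPM, with log2 fold changes of -0.05 ± 0.06 by label and 0.05 ± 0.06 by Trim28 level. Ago3 was the most variable machinery gene (coefficient of variation 10.6%). It stood at 91.9, 82.1 and 102 CPM in the libraries labelled sufficient 1, 2 and 3 and at 105, 88.5 and 108 CPM in those labelled deficient 1, 2 and 3. Its log2 fold change was 0.13 ± 0.10 by label (adjusted p = 0.732), 0.16 ± 0.08 in the 4 libraries (edgeR adjusted p = 0.226) and 0.07 ± 0.10 by Trim28 level (adjusted p = 0.704). Without deficient 2 the 4-library value was 0.28 and passed (adjusted p = 0.0242). Ago4, the remaining Argonaute gene of the mouse and not in the set, had 0 to 9 counts per library and could not be tested.

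The members called or standing apart were counted over the set, and each count is given beside the share over all genes tested. By label edgeR called 1 of 9 members, Mir142hg, against a background of 0.0165% of the 12158 genes tested, and nothing is read from this, since the set was drawn up on it. The groups did not overlap by label for 2 of 9 (Mir142hg and Ago2, both lower), where 12.8% of all genes do not overlap, 6.05% as lower. In the 4 libraries Mir142hg was called too, from which again nothing is read, and of the other 8 members 2 were called (Drosha and Dicer1, both lower), where 17.4% of the 12183 genes tested were called and 7.39% were called as lower. By Trim28 level edgeR called 0 of 9, against a background of 8.23%. DESeq2 and limma-voom also called 0, and at an unadjusted p under 0.05 there were 2 (Drosha and Mir17hg), a level that 22.3% of all genes reach. By Trim28 level 3 of 9 did not overlap (Drosha and Dicer1 lower, Mir17hg higher), where 26.4% of all genes do not, 14.5% as lower and 11.9% as higher. Without Mir142hg, the median log2 fold change of the other 8 was -0.04 by label, -0.01 in the 4 libraries and 0.01 by Trim28 level, next to -0.00, -0.00 and 0.00 over all genes tested.

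**Figure D3:**
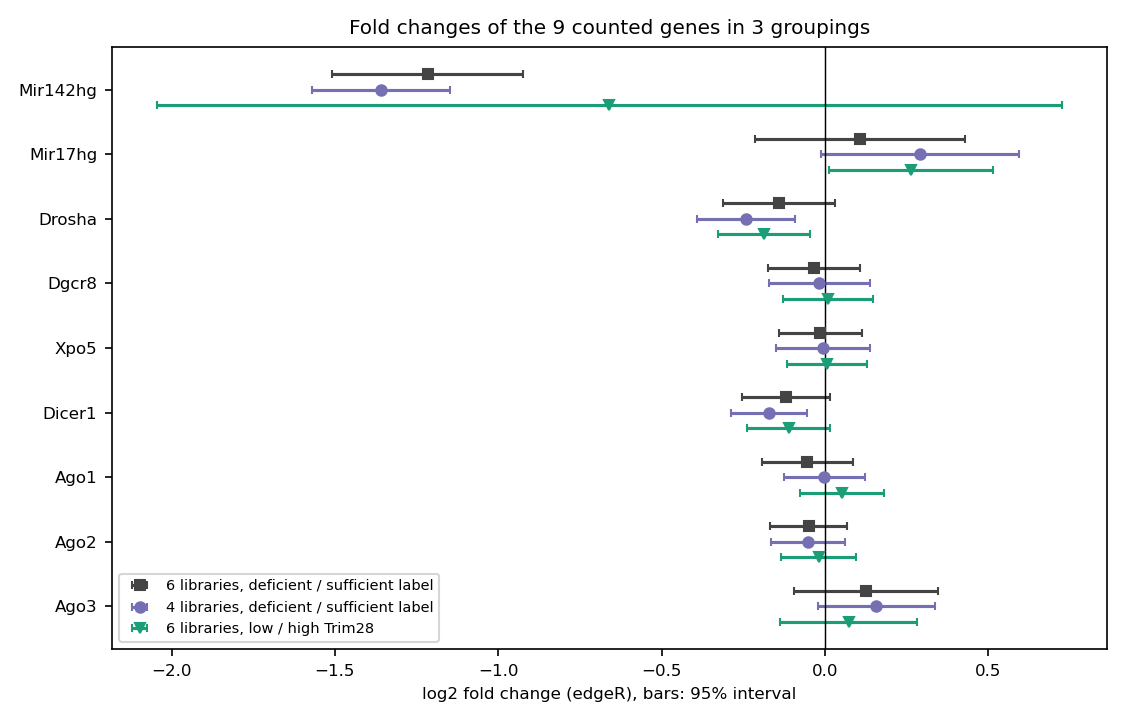
Log2 fold change of each counted member with its 95% interval (bars) from edgeR, by label in 6 libraries (squares), by label in 4 libraries (circles) and by Trim28 level in 6 libraries (triangles), with values below 0 lower in the deficient label or in low Trim28. Mir142hg lies at -1.22, -1.36 and -0.66, and the other 8 genes lie within 0.29 of 0 in each comparison.

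Per kilobase of annotated exon, a level that can be compared between genes, Mir142hg was the highest at 103 ± 47.6 CPM per kb (SD over the 6 libraries), on only 269 exonic bases, and its spread is mostly the difference between the labels. Ago2 followed at 25.4 ± 0.734 and Ago1 at 21.7 ± 0.954 CPM per kb. Xpo5 (11.9 ± 0.272), Dicer1 (11.7 ± 0.713) and Drosha (11.02 ± 0.937) came next and do not differ beyond their spread. Dgcr8 (8.85 ± 0.341), Ago3 (5.80 ± 0.617) and Mir17hg (4.01 ± 0.496 CPM per kb) were the lowest. The exon lengths hold every annotated exon, so a gene with long, unused UTR annotation is set too low.

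The genes whose profile over the 6 libraries was most like each host were sought among 10319 genes, by the root mean square difference of log2 CPM after centring each gene. Nearest to Mir142hg were Pgam1 (0.241), a glycolytic enzyme, Grasp (0.273), Rps27a-ps2 (0.279), Slc7a10 (0.286), an amino acid transporter, and Arnt2 (0.292), a bHLH-PAS factor. Rps27a-ps2 is a pseudogene, and its counts are uncertain because reads may come from its parent gene. Pgam1 had 5.05, 4.32 and 2.52 CPM in the libraries labelled sufficient 1, 2 and 3 and 1.98, 2.11 and 2.09 CPM in those labelled deficient 1, 2 and 3. These rest on 20 to 51 counts per library. Pgam1 was picked for its likeness over these same 6 libraries. Nothing is therefore read from its low value in the library labelled deficient 3 or its intermediate one in the library labelled sufficient 3. Nearest to Mir17hg were Nek1 (0.0373), Lyrm9 (0.0379), Ercc6l2 (0.0381), Phb (0.0413) and Rbx1 (0.0426).

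Of 62 listed partners of the pathway, 59 have a count row and 53 could be tested. By label 0 passed the edgeR test (0.0165% of all genes passed), and 0 with DESeq2 or limma-voom. At an unadjusted edgeR p under 0.05 there were 6 by label, a level that 7.76% of all genes reach. With replicates 1 and 2 alone, 9 were higher and 3 lower, or 22.6% called against a background of 17.4%, with a median log2 fold change of -0.02. By Trim28 level 1 was higher and 2 were lower, or 5.66% against 8.23%, with a median of -0.01.

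The partners called sat in several roles. Over all genes tested, 17.4% were called in the 4 libraries (7.39% as lower) and 8.23% by Trim28 level. The counts by role are small and are not read as a change of any role. Among 6 chaperones that help load Argonaute, Hspa8, the constitutive HSP70, fell most, and Stip1 fell while Ptges3 rose in the 4 libraries. Hspa8 had 426, 444 and 164 CPM in the libraries labelled sufficient 1, 2 and 3 and 278, 296 and 178 CPM in those labelled deficient 1, 2 and 3, which is a log2 fold change in the 4 libraries of -0.59 ± 0.05 (edgeR adjusted p = 1.89e-06). Both libraries in which Trim28 goes against the label were the lowest, so Hspa8 overlapped by label and by Trim28 level, and it is not called by either.

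The products of 10 deadenylase genes shorten the poly(A) tail of silenced messenger RNAs. Of these genes 3 were called as higher and 1 as lower in the 4 libraries, where 17.4% of all genes were called. Cnot6l, Cnot6 and Cnot7, all catalytic subunits of CCR4-NOT, rose, and Cnot3, a non-catalytic subunit, fell. Cnot6l rose from 215 and 228 CPM in sufficient 1 and 2 to 321 and 334 CPM in deficient 1 and 2, with a log2 fold change in the 4 libraries of 0.57 ± 0.05 (edgeR adjusted p = 2.68e-06). The libraries labelled sufficient 3 and deficient 3, at 306 and 307 CPM, were both near the deficient level. Cnot3 followed Trim28, at 140, 130 and 115 CPM in high and 99.2, 104 and 98.5 CPM in low Trim28, a log2 fold change of -0.34 ± 0.07 (adjusted p = 0.00795), which was lost without deficient 2 (adjusted p = 0.0519).

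Of 12 genes of nuclear processing and export, Srsf3, a splicing factor that marks hairpins for Drosha, and Hnrnpa1 rose in the 4 libraries. These 2 of 12 stand beside 17.4% of all genes called there. Srsf3 had 195, 197 and 226 CPM in the libraries labelled sufficient 1, 2 and 3 and 239, 243 and 248 CPM in those labelled deficient 1, 2 and 3, with a log2 fold change in the 4 libraries of 0.30 ± 0.05 (edgeR adjusted p = 0.000708). Of both Dicer partners, Prkra was lower by Trim28 level, at 9.40, 10.7 and 10.8 CPM in high and 6.21, 7.54 and 7.43 CPM in low Trim28 (log2 fold change -0.54 ± 0.14, adjusted p = 0.0290), on 64 to 119 counts. This call was lost with DESeq2 and without each of sufficient 2, the library labelled sufficient 3, deficient 1 and deficient 2 (adjusted p = 0.0629 to 0.140). Tsnax, a subunit of the C3PO nuclease, rose by Trim28 level, from 80.4, 87.6 and 88.1 CPM in high to 109, 103 and 107 CPM in low Trim28 (log2 fold change 0.32 ± 0.06, adjusted p = 0.00257). Among the silencing effectors 1 of 10 tested genes was called in the 4 libraries (background 17.4%). This was Fmr1, which rose (0.35 ± 0.06, edgeR adjusted p = 0.00107), and the scaffolds Tnrc6a and Tnrc6b were not called.

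**Figure D4:**
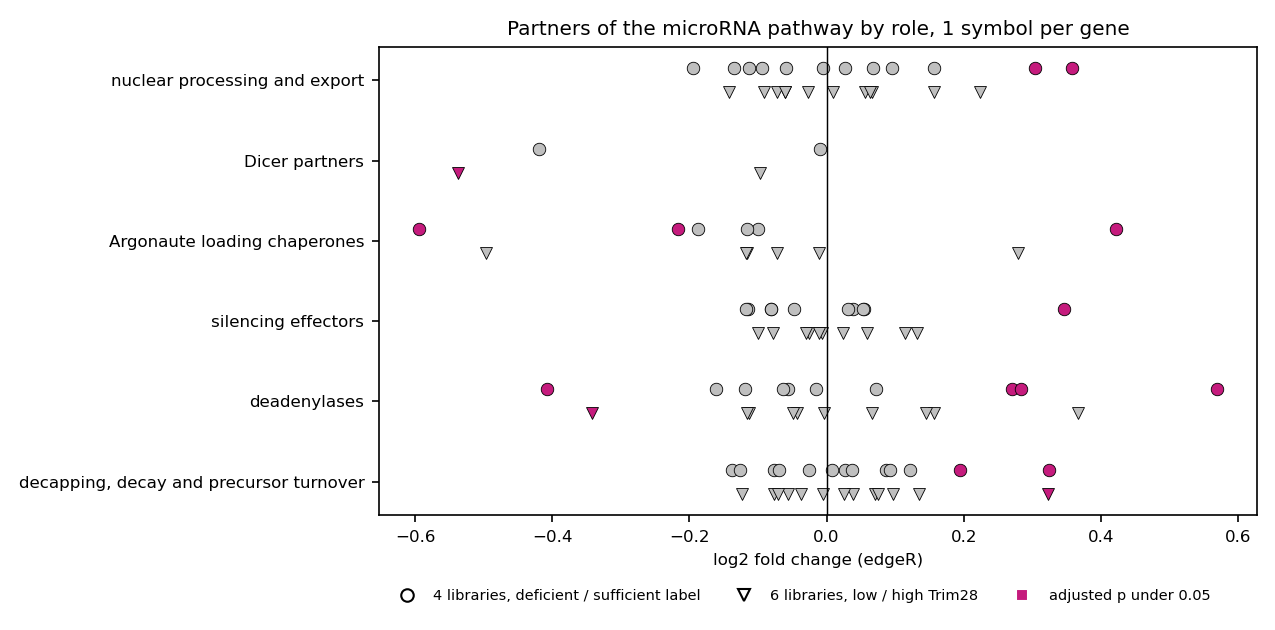
Log2 fold changes (edgeR) of the 53 tested partners of the microRNA pathway grouped by role, 1 symbol per gene, with circles for the 4 libraries by label, triangles for 6 libraries by Trim28 level and filled colour for an adjusted p under 0.05. Called genes lie on both sides of 0, from Hspa8 at -0.59 to Cnot6l at 0.57.

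Many microRNAs lie in introns of protein-coding genes, and 27 of 35 other listed host genes have a count row, of which 23 could be tested. By label edgeR called 0 of them, as did DESeq2 and limma-voom, with 2 at an unadjusted edgeR p under 0.05 (7.76% of all genes). Pank3, a pantothenate kinase that hosts miR-103, rose in the 4 libraries, from 87.7 and 82.3 CPM in sufficient 1 and 2 to 109 and 118 CPM in deficient 1 and 2 (log2 fold change 0.42 ± 0.07, edgeR adjusted p = 0.000445), and the libraries labelled sufficient 3 and deficient 3 were also high, at 118 and 119 CPM. Chm also rose (0.29 ± 0.08, adjusted p = 0.0186) and Rcl1 fell (-0.36 ± 0.09, adjusted p = 0.0119), but both lost the call without deficient 2 (adjusted p = 0.142 and 0.0615), Chm also without sufficient 1 or sufficient 2 (0.0534 and 0.0643), and both with DESeq2. By Trim28 level Pank1, the host of miR-107, rose, with 2.18, 3.63 and 3.55 CPM in high and 6.02, 4.66 and 5.32 CPM in low Trim28 (log2 fold change 0.78 ± 0.22, adjusted p = 0.0433), and so did Ptk2 (0.58 ± 0.17, adjusted p = 0.0456). Of the alternatives run for Pank1, 5 of 13 kept the call, and the call was lost without each of the 5 libraries other than the one labelled deficient 3 (adjusted p = 0.0611 to 0.175), and for Ptk2 without 4 of these 5 (adjusted p = 0.0509 to 0.207). Limma-voom called 0 and DESeq2 1 of the 23 by Trim28 level. The called shares, 13.04% in the 4 libraries and 8.70% by Trim28 level, stand beside backgrounds of 17.4% and 8.23%.

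Messenger RNAs reported as targets of these microRNAs were listed as a readout downstream of the hosts. Of 12 listed miR-142 targets with a count row, all 12 were tested, and their median log2 fold change by label was 0.05, with 7 above 0 and 5 below. By label edgeR, DESeq2 and limma-voom called 0 of them, and 0 had an unadjusted edgeR p under 0.05 (7.76% of all genes). With replicates 1 and 2 alone 3 of 12 were called (25.0%, background 17.4%), Tgfbr1 and Socs1 as higher and Arntl as lower. By Trim28 level 2 of 12 were called (16.7%, background 8.23%), Socs1 as higher and Arntl as lower.

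The sites of the seeds in these genes are shown for reported targets whose values are described, with the 8 bases opposite the seed and its flanking adenosine in capitals. They were read from the longest annotated 3' UTR on the coding strand.
Rac1, miR-142a-3p: gagattactttACACTACAttgtacatgga
Tgfbr1, miR-142a-3p: atttcatcctaACACTACAgtagaaaatgg
Socs1, miR-155-5p: cgctgtgccgcAGCATTAAgtgggggcgcc
Arntl, miR-142a-3p: ACACTACAtttgctttggc
Cyld, miR-17-5p and miR-20a-5p: tatttttaaagGCACTTTActccttggttt
Rora, miR-19a-3p and miR-19b-3p: tgcggcgttacTTTGCACAgcttgcttttc
Such an 8-base site was found in 7 of 12 listed miR-142 targets, 10 of 14 miR-155 targets and 11 of 16 miR-17-92 targets. The Arntl site, the first of 2, opens its 3' UTR, and the Rora site is the first of 3. Of the other called targets, Peli1, Maf and E2f1 hold no 8-base site of their list, and Socs1 holds none for miR-142a-3p or miR-142a-5p. A match is a description of the sequence and shows no binding in these cells.

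Tgfbr1, the type I receptor of TGF-beta, had 161, 173 and 200 CPM in the libraries labelled sufficient 1, 2 and 3 and 195, 202 and 199 CPM in those labelled deficient 1, 2 and 3. The library labelled sufficient 3 was as high as the deficient label, and the log2 fold change was 0.26 ± 0.05 in the 4 libraries (edgeR adjusted p = 0.00429) and 0.16 ± 0.08 by label (adjusted p = 0.654). Rac1, a GTPase of the cytoskeleton with the same site, was at 0.06 ± 0.06 by label and 0.09 ± 0.05 in the 4 libraries and was not called. Arntl, the circadian factor BMAL1, was lower in low Trim28, at 35.0, 36.9 and 33.4 CPM against 47.6, 43.2 and 43.8 CPM in high Trim28 (log2 fold change -0.34 ± 0.08, adjusted p = 0.0132). The Arntl call by Trim28 level was lost without sufficient 1, the library labelled sufficient 3 or deficient 2 (adjusted p = 0.0653, 0.0580 and 0.0759), and its call in the 4 libraries (-0.36 ± 0.09, adjusted p = 0.00942) without sufficient 1 or deficient 2 (0.0791 and 0.0553) and with DESeq2.

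Of 14 listed miR-155 targets 12 were tested. By label edgeR, DESeq2 and limma-voom called 0, with 1 at an unadjusted edgeR p under 0.05 (7.76% of all genes). Both in the 4 libraries and by Trim28 level 3 of 12 were called (25.0%, backgrounds 17.4% and 8.23%), Peli1 and Socs1 as higher and Maf as lower. Peli1, a ubiquitin ligase of T cell activation, had 311, 311 and 373 CPM in high and 478, 495 and 496 CPM in low Trim28 (log2 fold change 0.57 ± 0.07, edgeR adjusted p = 5.72e-05). Socs1, a brake on cytokine signalling that is listed for miR-142 as well, had 89.8, 78.3 and 83.4 CPM in high and 125, 98.5 and 107 CPM in low Trim28 (0.40 ± 0.08, adjusted p = 0.00846). Its call in the 4 libraries (0.30 ± 0.08, adjusted p = 0.0139) was lost without sufficient 2 or deficient 2 (0.112 and 0.0684) and with DESeq2 (0.0810). Maf, a transcription factor of T cell differentiation, had 183, 204 and 207 CPM in high and 123, 125 and 128 CPM in low Trim28 (-0.65 ± 0.06, adjusted p = 4.08e-06). The median of the list by Trim28 level was -0.04.

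Of 16 listed miR-17-92 targets 14 were tested. By label edgeR, DESeq2 and limma-voom called 0, with 1 at an unadjusted edgeR p under 0.05 (7.76% of all genes). With edgeR, 2 were called in the 4 libraries (14.3%, background 17.4%) and 2 by Trim28 level (14.3%, background 8.23%), where DESeq2 called 0. Cyld, a deubiquitinase, rose in the 4 libraries, from 296 and 297 CPM in sufficient 1 and 2 to 366 and 351 CPM in deficient 1 and 2 (log2 fold change 0.28 ± 0.05, edgeR adjusted p = 0.00143). E2f1, a driver of the cell cycle, fell in the 4 libraries (-0.73 ± 0.17, adjusted p = 0.00828) and by Trim28 level (-0.56 ± 0.15, adjusted p = 0.0316), at 66 to 128 counts per library. E2f1 is also in a list of 21 cell cycle genes, of which 15 were called as lower in the 4 libraries and 14 by Trim28 level. These shares of 71.4% and 66.7% stand beside backgrounds of 17.4% and 8.23% called in either direction. The medians of the list were -0.49 and -0.50, and the part of these genes in the value of E2f1 was not tested. The E2f1 call in the 4 libraries was lost without deficient 1 (adjusted p = 0.0507) and with DESeq2. By Trim28 level the calls of E2f1 and Rora (-0.26 ± 0.07, adjusted p = 0.0301) were lost with DESeq2 and without several single libraries (E2f1 without each of the 5 other than the library labelled deficient 3, Rora without 4 of these 5; adjusted p up to 0.142 and 0.119).

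Beyond the reported targets, all tested genes with an annotated 3' UTR were divided by whether it holds the 8-base site of each seed. The sites searched, on the coding strand only, were ACACTACA for miR-142a-3p, ACTTTATA for miR-142a-5p, AGCATTAA for miR-155-5p, GCACTTTA for miR-17-5p and miR-20a-5p, GCACCTTA for miR-18a-5p, TTTGCACA for miR-19a-3p and miR-19b-3p, and GTGCAATA for miR-92a-3p. The last 6 letters of GCACTTTA are the first 6 of ACTTTATA, so these sites can overlap. The site of miR-142a-3p was in 325 of 10605 tested genes (3.06%, against 2.64% of all 21037 annotated 3' UTRs) and that of miR-142a-5p in 554 (5.22%, against 4.801%). The others were in 1.71% (miR-18a-5p) to 5.93% (miR-19) of tested genes, against 1.33% and 5.30% of all 3' UTRs.

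Genes with a site had slightly higher median log2 fold changes by label than genes without for all 7 seeds. The differences ran from 0.0160 (miR-142a-3p) to 0.0517 (miR-142a-5p) and were not tested. For miR-142a-3p the medians were 0.01 with and -0.00 without the site, and for miR-142a-5p 0.05 and -0.01. For miR-155-5p they were 0.03 and -0.00, and for miR-17-5p and miR-20a-5p 0.02 and -0.00. The host of miR-155-5p has no count row, so its level by label is not known. Of 555 genes with the miR-142a-5p site 124 were called in the 4 libraries (22.3%), 99 higher and 25 lower, against 17.4% of genes without it. For miR-142a-3p 64 of 327 were called (19.6%), 42 higher and 22 lower, against 17.6%. Sites of other seeds had shares near or above that of miR-142a-5p. These were 23.9% for miR-92a-3p (44 higher and 28 lower), 23.3% for miR-19a-3p and miR-19b-3p (106 and 40) and 22.2% for miR-18a-5p (26 and 14). By Trim28 level the shares for miR-142 were lower with a site than without, at 6.32% against 8.65% for miR-142a-5p and 5.85% against 8.61% for miR-142a-3p. Genes with a site have longer 3' UTRs, with a median of 2400 to 2671 bases against 1122 to 1169 bases without, and the part of this length in the differences was not tested.

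**Figure D5:**
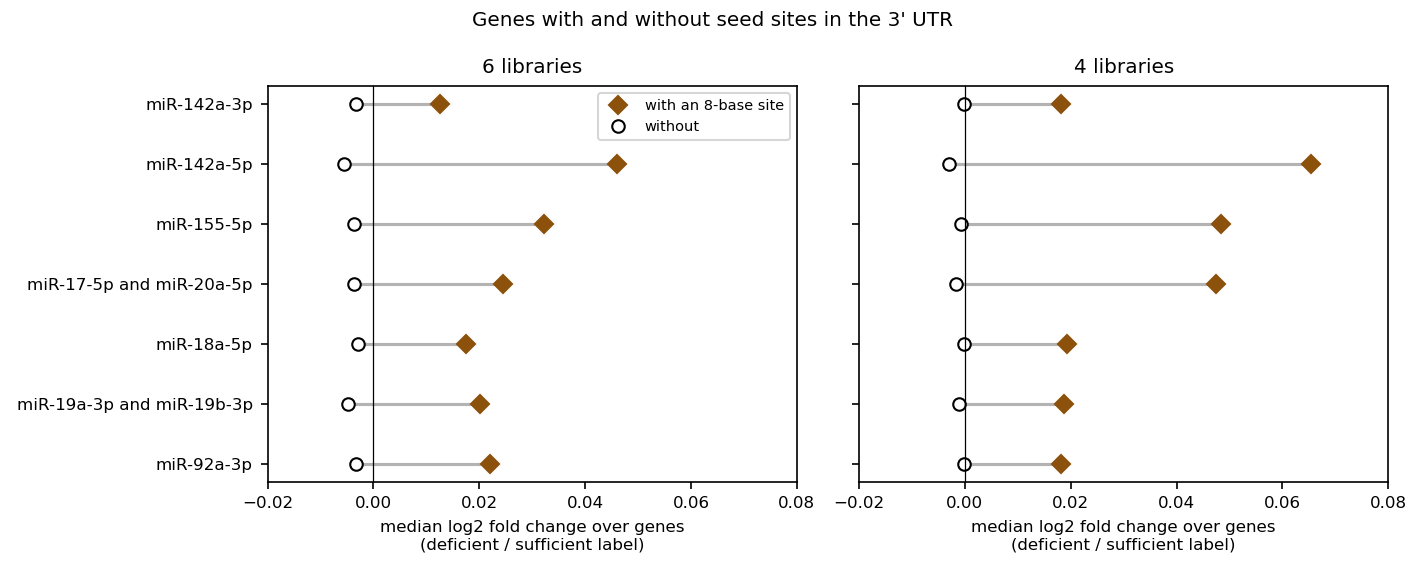
Median log2 fold change, deficient over sufficient label, of tested genes with (diamonds) and without (open circles) an 8-base seed site in the 3' UTR, for 7 seeds, in 6 libraries (left) and 4 libraries (right), on a linear axis that spans only -0.02 to 0.08. With a site the medians lie above 0 for each seed and highest for miR-142a-5p, at 0.05 with all 6 libraries, and genes with a site also have longer 3' UTRs.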

How the data were processed

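RNA-seq counts of 6 Treg libraries (3 per label) were used. The submitters' processing notes name the build mm10 and the tools HTSeq 0.7.2, TopHat2 2.1.1 and DESeq2, without role or order. The authors deposited whole-number counts per Ensembl gene. The authors also deposited a comparison with a mean signal, log2 fold changes, a test score, p-values and q-values, positive where sufficient was higher. The sources used here give neither the annotation release nor the strand setting.

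Symbols matched 32919 rows, and the 5072 others held 0.603% of counts. Totals of 9954344 to 10994745 counts make 3 counts 0.273 to 0.301 CPM, a limit for counting error only. CPM are counts over the library total. Libraries differed beyond sampling noise in every pair (smallest chi-square per degree of freedom 2.43). The test on the counts was that of edgeR 4.0.16 under R 4.3.3 (quasi-likelihood, robust, TMM, filterByExpr), and SE were derived from the fold change and F. DESeq2 1.42.0, limma-voom (limma 3.58.1), other scaling, no filter, a non-robust fit, a replicate block and leaving out libraries were alternatives. The fits were tested on simulated data. Tables were made in Python 3.11.15 (numpy 2.4.6, pandas 2.3.3) and figures with matplotlib 3.10.9. The longest 3' UTR per gene was built from GENCODE M21, and sites of 8 bases are the reverse complement of the seed followed by A.

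The members, gene lists and roles were chosen with earlier results of these data known. Named genes are Trim28, the 10 members, up to 4 called genes per list with the smallest adjusted p in the 4 libraries and up to 4 by Trim28 level, the 5 genes most like each counted host (pseudocount 0.5 CPM, mean log2 CPM of at least 1, predicted genes left out) and the 2 highest markers per other cell type. Other genes named (neighbours of Mir142hg, Mir142b, Ago4, Fmr1, Cnot6, Cnot7, Stip1, Ptges3, Hnrnpa1, Tnrc6a, Tnrc6b, Rac1 and the markers at 0) were chosen after their values were seen.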

Additional observations from a re-analysis of the deposited data

How the results depend on the processing

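By label, the 2 genes called became 1 with the non-robust fit, 1 with limma-voom, 6 with DESeq2, 1 to 807 on leaving out single libraries (807 without the library labelled sufficient 3) and 2114 without both libraries in which Trim28 goes against the label. The 1 member called, Mir142hg, became 0 with the non-robust fit and limma-voom and 0 to 1 without single libraries, with log2 fold changes of -1.36 to -1.12 over all 14 alternatives, and 3 members were called without both libraries. Nothing is read from whether Mir142hg is called, since the set was drawn up on its pattern by label. In the 4 libraries DESeq2 gave 942 genes and 1 member (main 2114 and 3), and leaving out single libraries gave 1632 to 1717 genes and 1 to 2 members, with a lone library assumed to vary like the others. By Trim28 level no filter gave 1676 genes (main 1000), and leaving out single libraries gave 556 to 2737 genes and 0 to 2 members, 2737 genes and 2 members (Drosha at -0.24 and Dicer1 at -0.16) without the library labelled deficient 3. The cause of these differences was not tested.

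Values near 0 turned sign without being called, mostly on leaving out a single library, over which they ranged as follows. By label the range was -0.000336 to 0.257 for Mir17hg, -0.0611 to 0.000136 for Dgcr8 and -0.0375 to 0.00481 for Xpo5. In the 4 libraries it was -0.0721 to 0.0705 for Ago1 (0.000471 with limma-voom), -0.106 to 0.00296 for Ago2, -0.0649 to 0.0309 for Dgcr8 and -0.0522 to 0.0409 for Xpo5. By Trim28 level it was -0.0263 to 0.0530 for Dgcr8 and -0.0129 to 0.0305 for Xpo5 (-0.000133 and -0.00321 with library totals), -0.0406 to 0.0201 for Ago2 and -0.0156 to 0.182 for Ago3. The alternatives were also run for 18 other genes in the 4 libraries and 14 by Trim28 level, which kept direction, with 14 of 198 values in the 4 libraries and 36 of 182 by Trim28 level no longer passing. A 7-base site, chosen after seeing the data, was found in 6.86% of tested genes for miR-142a-3p and 15.9% for miR-142a-5p.

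Whether replicate numbers pair the libraries cannot be told from these counts. Deviations from the labelled group means correlated at -0.357, -0.286 and -0.600 for same-numbered libraries. Both libraries in which Trim28 goes against the label bear number 3. Genes that follow Trim28 therefore deviate in opposite directions in same-numbered libraries. The correlations cannot show whether same-numbered libraries share other effects. With the replicate block, 0 genes and 0 members were called by label (Mir142hg at -1.20), 2359 genes and 3 members in the 4 libraries, and 1117 genes and 0 members by Trim28 level.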
